A study of Danio rerio with 6 samples.

Results

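Hyaluronan is a long, unbranched sugar polymer of the extracellular matrix. Hyaluronan synthases spin it out through the plasma membrane, hyaluronidases cut it, and receptors at the cell surface bind it or take it up. CD44, the most widely used of these receptors in vertebrates, is carried by many epithelial, mesenchymal and blood cells and ties the cell surface to hyaluronan, whereas the LYVE1 and stabilin receptors are known from lymphatic, venous and sinusoidal endothelium.

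The 10 genes described here cover that cycle: the receptors cd44a, cd44b, lyve1a, lyve1b and stab2, the synthases HAS1, HAS2 and HAS3, and the pair of hyaluronidase genes that the reference table names HYAL2. They were taken from a list of gene names, out of 32520 Ensembl genes in the counts table. Of the 10, 8 matched by their own symbol, and the 2 listed as hyal2a and hyal2b matched only through the shared name HYAL2, so these are kept apart by identifier and it is not stated which is which. The family was selected on a measured value, since cd44a had the smallest p-value of all genes in the comparison of exposed with control testes. Its values in that comparison, and those of its relatives, are therefore given as a description, and their p-values are not used as support. Of the 10, 9 had enough counts to enter the fit across all genes, and HAS1 did not.

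The libraries were poly(A)-enriched RNA of testes from 6 adult wild-type zebrafish, 1 animal each. The 3 control fish lived in water with no plastic added, and the 3 exposed fish had polystyrene nanoplastics added to their water every 24 h over 96 h. The sources used here do not state strain, age, particle size or dose. Each library carries its label's replicate number and then its animal number, giving control 1-2, 2-2 and 3-1 and exposed 2-2, 3-1 and 3-3. Exposed 3-1 and 3-3 share a replicate number that the labels leave unexplained, and they are treated as independent. Levels below are counts per 1000000 counts (CPM) after scaling by the trimmed mean of M-values (TMM), and fold changes are exposed over control on a log2 scale, from edgeR, with their standard error (SE). CPM are not corrected for gene length, so levels are compared between libraries and not between genes.

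Library totals ran from 76205591 to 108273937 counts, so that 3 counts in a library equalled between 0.0262 and 0.0422 CPM. All 19 germ cell markers looked for were present in every library, with summed levels of 8824 to 8993 CPM across controls and 4072 to 6027 CPM in exposed testes. The 21 epidermal markers summed to 1043, 2756 and 1526 CPM in control 1-2, 2-2 and 3-1 and to 17858, 12357 and 1894 CPM in exposed 2-2, 3-1 and 3-3, so that exposed 2-2 and 3-1 stood farthest from the controls. Of these sums, averaged over all libraries, the keratin gene krt91 held 36.1%. Without it they were 527, 965 and 635 CPM in controls and 13449, 7212 and 1146 CPM in exposed libraries, so that exposed 3-3 too lay above every control. Control 3-1 stood apart from the other controls in the plasma protein genes ambp (444 CPM against 45.8 and 4.10) and ITIH2 (223 CPM against 34.2 and 18.5). The labels also call the material germline, but Sertoli and Leydig cell markers were present too. Sertoli markers summed to 2545 to 3037 CPM across controls and 1683 to 2329 CPM in exposed testes, so that the groups were apart. Leydig markers summed to 2164 to 4435 CPM across controls and 1479 to 2546 CPM in exposed testes, with overlap. In whole tissue, a different number of cells of a type and a different amount of RNA per cell cannot be told apart.

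The receptor gene cd44a (ENSDARG00000087863) was close to silent in control testes and plainly present in every exposed testis. It had 18, 30 and 34 counts in control 1-2, 2-2 and 3-1 and 11601, 3629 and 5664 counts in exposed 2-2, 3-1 and 3-3. As levels these were 0.201, 0.382 and 0.478 CPM across the controls and 114, 38.6 and 49.4 CPM in the exposed libraries. The lowest exposed library was 80.7 times the highest control. Within controls the highest library was 2.38 times the lowest, and within exposed libraries 2.94 times. The group means were 0.354 ± 0.141 and 67.2 ± 40.5 CPM (SD, n = 3 each), and the log2 fold change was 7.57 ± 0.62 (SE). Without exposed 2-2, the library with the highest value, it was 6.96 ± 0.47. With all libraries 161 genes of 26108 had a larger log2 fold change, and without exposed 2-2 there were 296.

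The paralog cd44b (ENSDARG00000089892) was present in all libraries and lay in the same direction by a much smaller factor. It had 3.61, 3.33 and 1.45 CPM in control 1-2, 2-2 and 3-1 and 7.28, 6.55 and 12.1 CPM in exposed 2-2, 3-1 and 3-3. The groups did not overlap, with the lowest exposed library at 1.81 times the highest control, and the log2 fold change was 1.62 ± 0.52. The ordering of the exposed libraries differed between the paralogs: exposed 2-2 was highest for cd44a and exposed 3-3 for cd44b.

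None of the 3 endothelial receptor genes was higher in all exposed testes. The gene lyve1a (ENSDARG00000075833), a relative of the mammalian lymphatic receptor LYVE1, had 1.70, 3.89 and 6.15 CPM across the controls and 5.05, 8.78 and 3.37 CPM in exposed 2-2, 3-1 and 3-3, with overlapping groups. Likewise lyve1b (ENSDARG00000062483), used in zebrafish as a marker of lymphatic and venous endothelium, had 3.89, 10.1 and 3.71 CPM across controls and 4.40, 8.49 and 8.90 CPM in exposed testes. Their log2 fold changes of 0.55 ± 0.61 and 0.30 ± 0.54 were no larger than their standard errors, but both moved with single libraries. For lyve1a the value was 1.02 ± 0.66 without control 3-1 and 0.09 ± 0.69 without exposed 3-1, and for lyve1b it was 0.92 ± 0.55 without control 2-2 and 0.04 ± 0.57 without control 3-1. The scavenger receptor gene stab2 (ENSDARG00000045748), whose product clears hyaluronan from the circulation in mammals, lay the other way. It had 12.9, 13.5 and 14.5 CPM across controls and 12.1, 6.04 and 10.2 CPM in exposed 2-2, 3-1 and 3-3. The groups were apart, but exposed 2-2 was only just below control 1-2, and the log2 fold change was -0.53 ± 0.35, or -0.31 ± 0.33 without exposed 3-1.

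**Figure D1:**
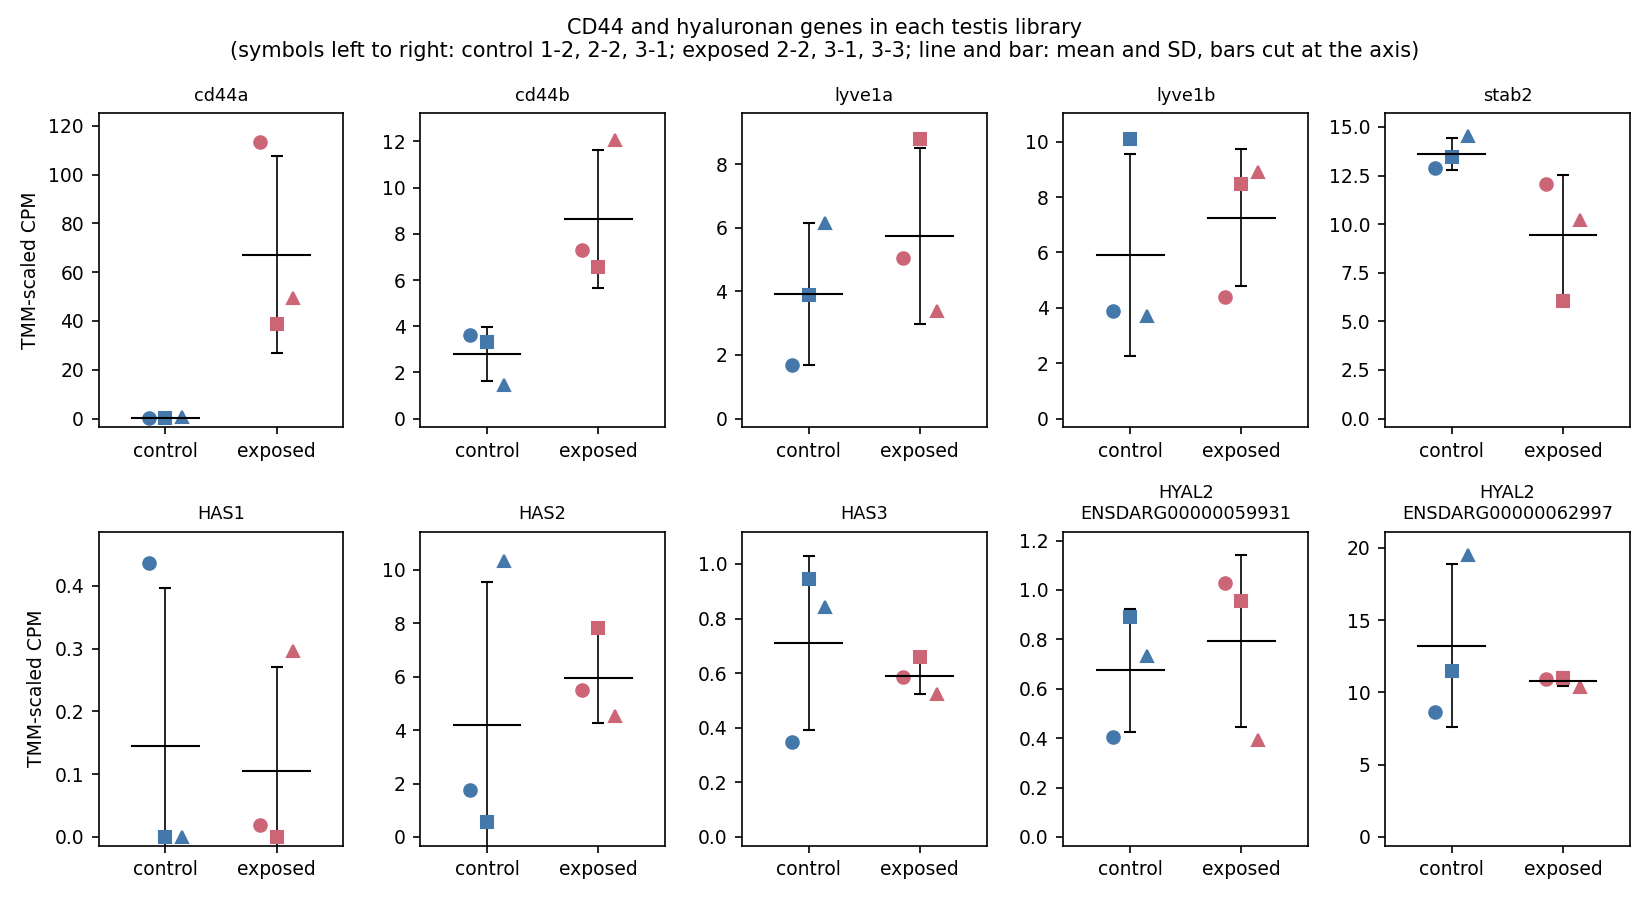
TMM-scaled CPM of the 10 CD44 and hyaluronan genes in each library, 1 panel per gene with its own linear axis; points are libraries, black lines the group means and bars the SD (n = 3). Only cd44a and cd44b have all exposed libraries above all controls, and stab2 has all of them below.

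No synthase stood higher or lower in all exposed testes. HAS2 (ENSDARG00000036987), the main hyaluronan synthase of vertebrate embryos, had 1.75, 0.561 and 10.3 CPM in control 1-2, 2-2 and 3-1 and 5.50, 7.83 and 4.54 CPM in exposed 2-2, 3-1 and 3-3. The exposed libraries thus lay between the low controls and the high control 3-1, which was 18.4 times control 2-2. The log2 fold change of 0.50 ± 0.94 turned to -0.03 without control 2-2 and was 2.35 without control 3-1. HAS3 (ENSDARG00000057210) had 0.347, 0.943 and 0.844 CPM across controls and between 0.523 and 0.659 CPM in exposed testes, inside the control range, with a log2 fold change of -0.27 ± 1.15. HAS1 (ENSDARG00000042983) had 39 counts in control 1-2, 34 in exposed 3-3, 2 in exposed 2-2 and 0 in the other 3 libraries. No group difference was detectable for it from these counts.

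For both hyaluronidase genes the groups overlapped. HYAL2 ENSDARG00000062997, of the family whose mammalian product cuts long hyaluronan at the cell surface, had 8.66, 11.5 and 19.5 CPM across controls and between 10.4 and 10.97 CPM in exposed libraries. The exposed libraries differed from each other by a factor of 1.06 and lay within the control range (log2 fold change -0.30 ± 0.37). HYAL2 ENSDARG00000059931 had 0.403, 0.892 and 0.731 CPM across controls and 1.03, 0.957 and 0.393 CPM in exposed testes, with a log2 fold change of 0.23 ± 1.11. The SEs of HYAL2 ENSDARG00000059931, of HAS2 and of HAS3 are wide enough that moderate differences could not have been seen. For HYAL2 ENSDARG00000062997, with an SE of 0.37, smaller differences could have been missed.

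Among the 9 fitted genes the groups were apart on the higher side for 2 and on the lower side for 1, where 12.8% and 10.9% of all 26108 genes were. By edgeR's quasi-likelihood test with Benjamini-Hochberg adjustment over all genes 0 of the 9 passed at 0.05, as did 0.0% of all genes. At an unadjusted p under 0.05 there were 2, cd44a and cd44b, both higher, against 9.68% of all genes higher and 6.79% lower. DESeq2 called 1 of the 10, cd44a, against 5.34% of all genes called higher and 1.34% lower. The gene cd44a was also the 1 member called by edgeR's bias-adjusted method (0.249% of all genes higher and 0.0192% lower) and at an adjusted p under 0.1 (0.0651% of all genes). Because the same contrast chose cd44a, nothing is read from these counts. Of the 9, 6 had log2 fold changes above 0, against 52.1% of all genes. The median over the 9 was 0.30, beside 0.04 over all genes. Among the controls, 5 of the 10 genes had their highest value in control 3-1: cd44a, HAS2, HYAL2 ENSDARG00000062997, lyve1a and stab2. How many of all genes did so was not counted, so nothing is read from this number either.

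The wider hyaluronan and CD44 pathway was described from 6 lists with 98 fitted genes. The lists were chosen with earlier results of these data known, so all counts from them are a description. For comparison with each list, 52.1% of all genes lay above 0, with a median log2 fold change of 0.04. DESeq2 called 5.34% of all genes higher and 1.34% lower. EdgeR passed 0 of the 98 (smallest adjusted p = 0.141), as it passed 0.0% of all genes, and DESeq2 called 9 higher and 1 lower (9.18% of the 98 higher, against 5.34% of all genes). At an unadjusted p under 0.05, 17 were higher and 3 lower, that is 17.3% higher against 9.68% of all genes. At the same cutoff 11 were higher without exposed 2-2, against 6.32% of all genes. Without exposed 3-1 there were 11 against 7.56%, and without exposed 3-3 there were 23 against 11.2%. Without exposed 3-3, edgeR passed 5 of the 98 (ESRP1, ESRP2, GFPT2, areg and cd74b) and 396 of all genes. The groups were apart on the higher side for 18 and on the lower side for 4, against 12.8% and 10.9% of all genes.

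Of the other hyaluronan receptors, 3 of 6 lay above 0 and 3 below (median -0.18), and 0 of 6 passed in edgeR or DESeq2. The gene hmmr, whose product binds hyaluronan and the mitotic spindle, had 100, 129 and 90.4 CPM in control 1-2, 2-2 and 3-1 and 61.8, 38.0 and 79.0 CPM in exposed 2-2, 3-1 and 3-3. All exposed libraries were below all controls, and the log2 fold change of -0.84 ± 0.30 did not pass (edgeR adjusted p = 0.236). The summed germ cell markers were lower in the same libraries, and their part in this value was not tested. The scavenger receptor gene stab1 had 37.3 ± 9.79 CPM across controls and 38.3 ± 2.33 CPM in exposed testes. The receptor gene tlr4ba had 4.21 CPM in exposed 2-2 and between 0.357 and 1.23 CPM in the other 5 libraries.

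Of the other breakdown genes, 7 of 10 lay above 0 (median 0.48), with 0 passing in edgeR and 1 in DESeq2. That was CEMIP, which binds and degrades hyaluronan in mammals. It had 19.5, 34.8 and 18.5 CPM across controls and 47.3, 65.6 and 45.9 CPM in exposed 2-2, 3-1 and 3-3. Every exposed library was above every control, with a log2 fold change of 1.13 ± 0.31 (adjusted p = 0.173 by edgeR and 0.0358 by DESeq2). HEXA, a lysosomal enzyme gene, had 42.3 ± 1.83 CPM across controls and 41.0 ± 14.6 CPM in exposed testes.

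Within the list of hyaluronan matrix partners, such as the proteoglycans and link proteins that hyaluronan strings together, 12 of 19 lay above 0 and 7 below (median 0.33), and 0 passed in either test. The link protein gene hapln1a had 22.5, 7.14 and 2.28 CPM across controls and 53.1, 10.99 and 39.7 CPM in exposed 2-2, 3-1 and 3-3, with overlapping groups and a log2 fold change of 1.70 ± 0.93 (edgeR adjusted p = 0.432). It ranged from 1.204 without control 3-1 to 2.88 without control 1-2. HAPLN2 was at 1.58 ± 1.63 CPM across controls and 0.568 ± 0.636 CPM in exposed testes. The plasma protein genes ambp and ITIH2, whose products are made in the liver, were high in control 3-1 and in exposed 3-1 (209 and 184 CPM). Their log2 fold changes were -0.75 ± 1.58 and -0.23 ± 1.30.

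Among genes that supply the sugar precursors, 10 of 16 lay above 0 (median 0.26). DESeq2 called 1 higher and 1 lower and edgeR 0. GFPT2, an enzyme of the first step of hexosamine synthesis, had 3.501, 4.10 and 5.12 CPM across controls and 66.8, 19.2 and 6.67 CPM in exposed 2-2, 3-1 and 3-3. The groups were apart, exposed 2-2 was 10.02 times exposed 3-3, with a log2 fold change of 2.86 ± 0.80 (adjusted p = 0.184 by edgeR and 0.00141 by DESeq2). It was 1.61 without exposed 2-2. GPI ENSDARG00000103826, a glucose-6-phosphate isomerase gene, went the other way, with 118, 107 and 112 CPM across controls and 54.9, 49.8 and 62.8 CPM in exposed libraries (log2 fold change -1.01 ± 0.20, adjusted p = 0.141 by edgeR and 0.0025 by DESeq2). Its paralog GPI ENSDARG00000012987 had overlapping groups and a log2 fold change of -0.34 ± 0.24.

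Genes of proteins that bind CD44, process it or splice its RNA lay above 0 in 20 of 26 cases (median 0.36). EdgeR called 0 of them, and DESeq2 called 5 higher and 0 lower, where it called 5.34% and 1.34% of all genes. ESRP1 and ESRP2, epithelial splicing factors that choose the variable exons of CD44 in mammals, were among these. ESRP1 had 1.73, 4.74 and 2.42 CPM across controls and 112, 44.7 and 11.3 CPM in exposed 2-2, 3-1 and 3-3 (log2 fold change 4.24 ± 0.92, adjusted p = 0.165 by edgeR and 1.17e-07 by DESeq2). ESRP2 had 7.43, 6.70 and 3.43 CPM across controls and 65.8, 41.9 and 10.9 CPM in those exposed libraries (log2 fold change 2.75 ± 0.66, adjusted p = 0.165 by edgeR). For both genes exposed 3-3 was nearest to the controls, in the same order as the summed epidermal markers, whose part in these values was not tested. The invariant chain genes cd74a and cd74b, partners of CD44 in a cytokine receptor of mammals, were also called by DESeq2. Their levels in exposed 2-2, 3-1 and 3-3 were 2733, 1579 and 1216 CPM and 2056, 984 and 725 CPM, against at most 759 and 391 CPM in a control (edgeR adjusted p = 0.156 and 0.150). The fifth was EZR ENSDARG00000025091, ezrin, which links membrane proteins to actin, named here after its values were seen, at 40.5 ± 4.44 CPM across controls and 123 ± 83.6 CPM in exposed testes (adjusted p = 0.180 by edgeR).

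In the list of signals of matrix growth and repair 14 of 21 genes lay above 0 (median 0.24), with 0 called by edgeR and 2 called higher by DESeq2. The growth factor gene areg, a ligand of the epidermal growth factor receptor, had 0.716, 0.918 and 0.900 CPM across controls and 27.9, 13.8 and 2.31 CPM in exposed 2-2, 3-1 and 3-3 (log2 fold change 4.12 ± 0.85, adjusted p = 0.150 by edgeR and 6.11e-06 by DESeq2). The other was hbegfa, of the same ligand family and named after its values were seen, at 11.96 ± 6.45 CPM across controls and 55.4 ± 22.3 CPM in exposed testes. The JUNB genes, of the AP-1 transcription factor, overlapped between groups through control 3-1 (168 and 143 CPM). The cytokine gene il6 had 6.19 CPM in control 3-1 and at most 0.332 CPM in any other library. Of the 9 pathway genes that DESeq2 called higher, 8 had exposed 2-2 highest and exposed 3-3 lowest, an order that cd44a did not share. The share of all genes in this order was not counted, so nothing is read from this count.

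**Figure D2:**
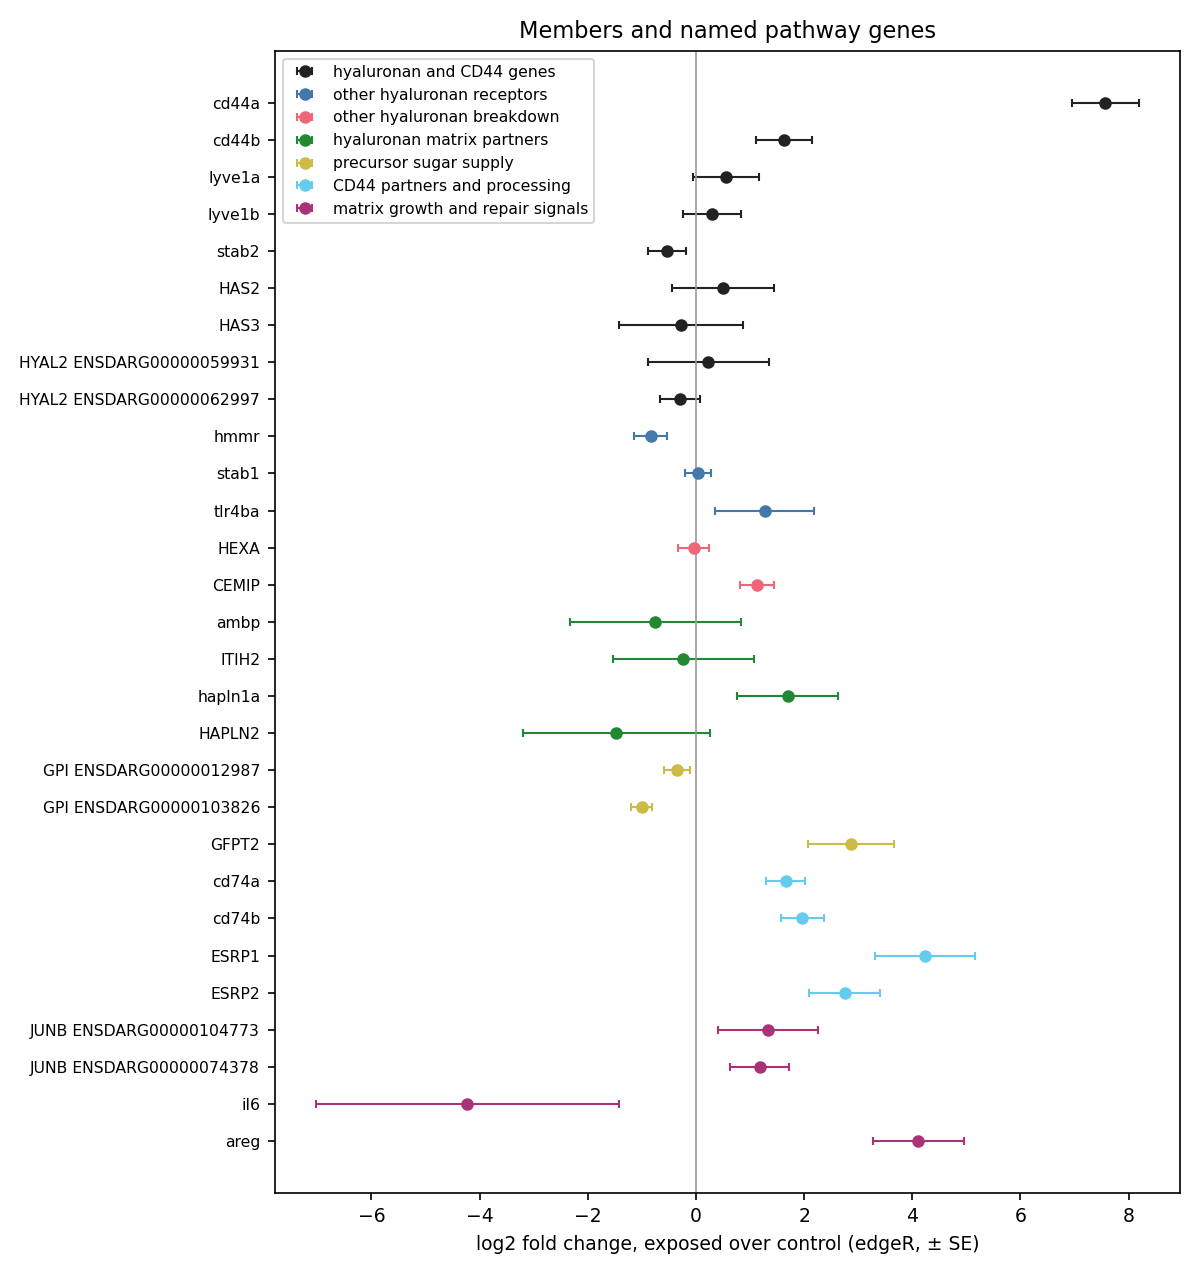
Log2 fold changes, exposed over control, from edgeR with their SE, for the 9 fitted CD44 and hyaluronan genes (black) and the pathway genes named in the text by rule, from 6 lists (colours). The value of cd44a, 7.57, lies beyond every other gene drawn, of which ESRP1 at 4.24 and areg at 4.12 come next.

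Because markers of other cell types differed between the groups, cd44a was set beside 9 marker lists in each library. Relative to the control mean, cd44a was 321, 109 and 140 times as high in exposed 2-2, 3-1 and 3-3. The epidermal markers had median ratios of 36.2, 9.38 and 2.45 in the same libraries, and 21, 20 and 15 of the 21 lay above every control. The share of all genes above every control was not counted library by library, so nothing is read from these counts. In exposed 3-3 the summed epidermal level was inside the control range with krt91 (1894 CPM against 1043 to 2756 CPM) and above it without krt91 (1146 CPM against 527 to 965 CPM). The largest log2 differences of epidermal markers from the control mean there were 5.18 for cldne, 4.39 for icn2 and 3.80 for anxa1c, beside 7.12 for cd44a. Below the control mean lay cyt1l (-1.97), cyt1 (-0.65), krt91 (-0.33) and krt4 (-0.28). The epidermal genes that differed more than cd44a, on a log2 scale with a prior count of 2, were cldne and anxa1c in exposed 2-2 and krt5, cldne and anxa1c in exposed 3-1. In exposed 3-3 there were 0 among all 124 markers. Because cd44a was selected for its difference in this same contrast, its rank among the markers is a description only.

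The 15 macrophage and neutrophil markers summed to 325, 300 and 732 CPM across controls and to 1461, 952 and 1466 CPM in exposed 2-2, 3-1 and 3-3, and only tyrobp was at 0 in all controls. Their median ratios to the control mean were 2.59, 1.84 and 2.96, and all exposed sums lay above all control sums. The same held for red blood cell markers, which summed to 876 to 2248 CPM across controls and 3222 to 4542 CPM in exposed testes. Of these sums, averaged over all libraries, the gene hbaa1 held 81.0%. Without it they were 421, 267 and 191 CPM across controls and 1023, 512 and 591 CPM in exposed 2-2, 3-1 and 3-3. Of these 9 markers, 8 had log2 fold changes above 0 and 1 below. Lymphocyte markers summed to 300, 178 and 154 CPM across controls and 334, 293 and 537 CPM in exposed libraries. Endothelial and lymphatic markers, the cell types of lyve1a, lyve1b and stab2, ran from 164 to 251 CPM across controls and from 248 to 339 CPM in exposed testes. Fibroblast and peritubular markers ran from 703 to 935 CPM across controls and from 750 to 1541 CPM in exposed testes. The part of any of these cell types in the level of cd44a was not tested.

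**Figure D3:**
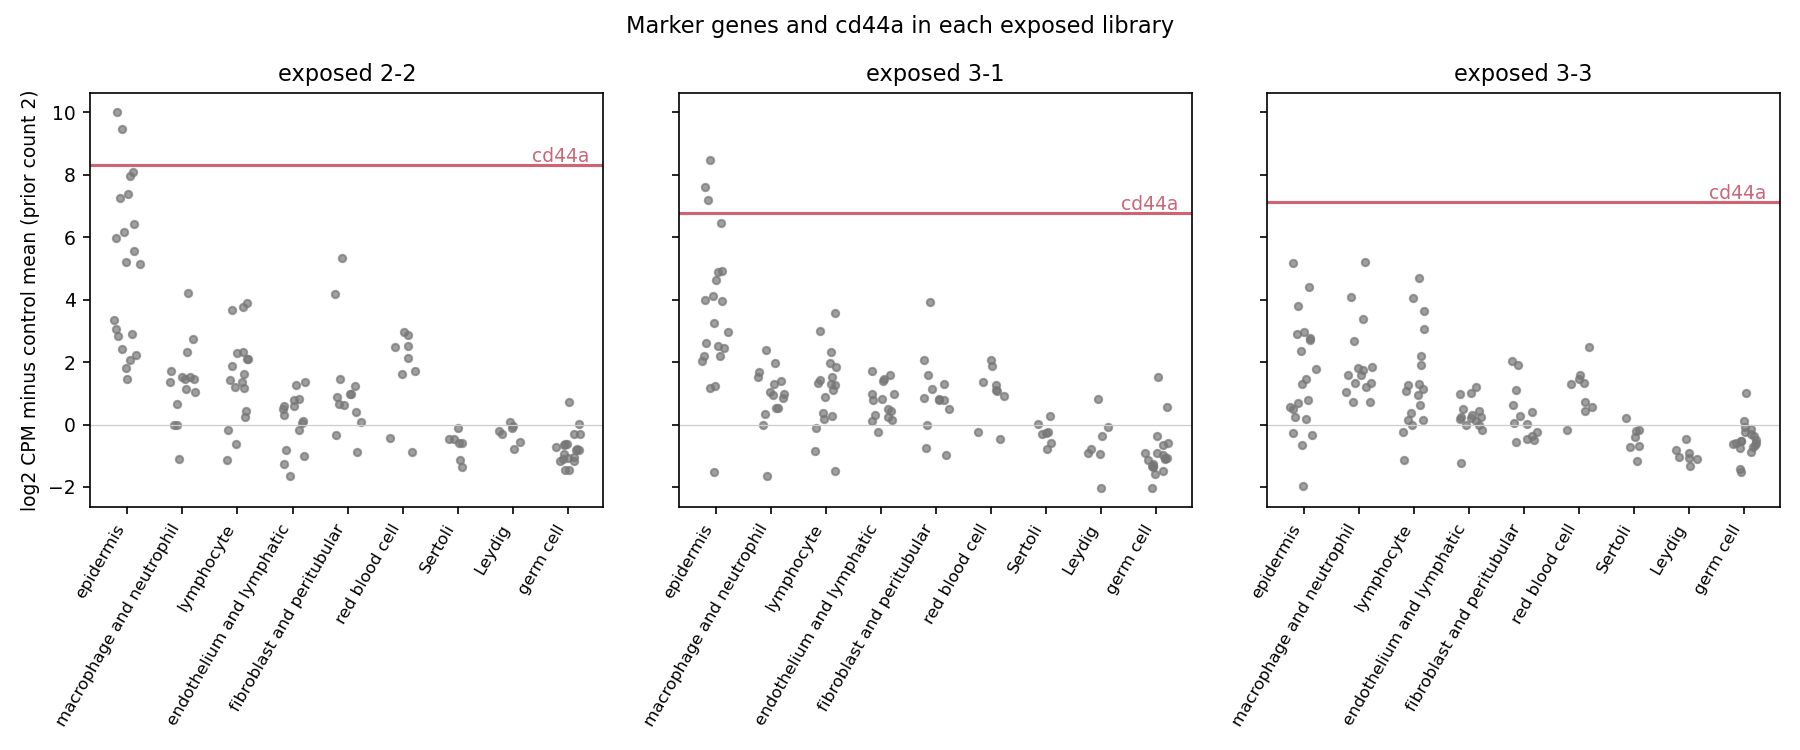
Log2 CPM (prior count 2) minus the control mean for each marker gene (grey points, 9 lists) and for cd44a (red line), 1 panel per exposed library. The epidermal points have medians of 5.19, 3.24 and 1.31 in exposed 2-2, 3-1 and 3-3, where cd44a is at 8.32, 6.76 and 7.12.

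The profile of cd44a over the 6 libraries was compared with that of every named gene with a mean of at least 1 CPM. Likeness was the mean absolute difference in log2 CPM (prior count 2) after subtraction of the control mean, over 6 libraries. The 10 nearest genes were smim24 (0.52), CCR6 (0.58), WNT9B (0.61), cldnk (0.68), icn2 (0.69), arid6 (0.86), il19l (0.90), gdpd3b (0.92), xkr8.1 (0.94) and ms4a17a.2 (0.94). All 10 had at most 0.956 CPM in a control library, so they reached the mean of 1 CPM only through the exposed libraries. The ranking matched genes to the difference for which cd44a was selected, so it favoured genes low in controls and high in exposed testes. All 6 libraries entered the ranking, so it also favoured genes with the order and spread of cd44a among the exposed libraries. For the 10 genes, low control levels, high exposed levels, and order and spread among exposed libraries are therefore a description only. The nearest, smim24, encodes a small membrane protein and had 0 counts in the controls and 8.15, 3.89 and 5.39 CPM in exposed 2-2, 3-1 and 3-3. It was the only one of the 10 with exposed 3-3 above exposed 3-1, as cd44a had. The chemokine receptor gene CCR6 had 7.18, 2.99 and 0.881 CPM and the signalling gene WNT9B 12.6, 5.29 and 2.45 CPM in exposed 2-2, 3-1 and 3-3. The epidermal marker icn2 had 207, 66.8 and 15.9 CPM there. Of the 10, 8 followed the order exposed 2-2, 3-1, 3-3, for which the share of all genes was not counted. Across exposed libraries the highest value was 2.09 times the lowest for smim24 and at least 5.16 times for each of the other 9, against 2.94 times for cd44a.

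**Figure D4:**
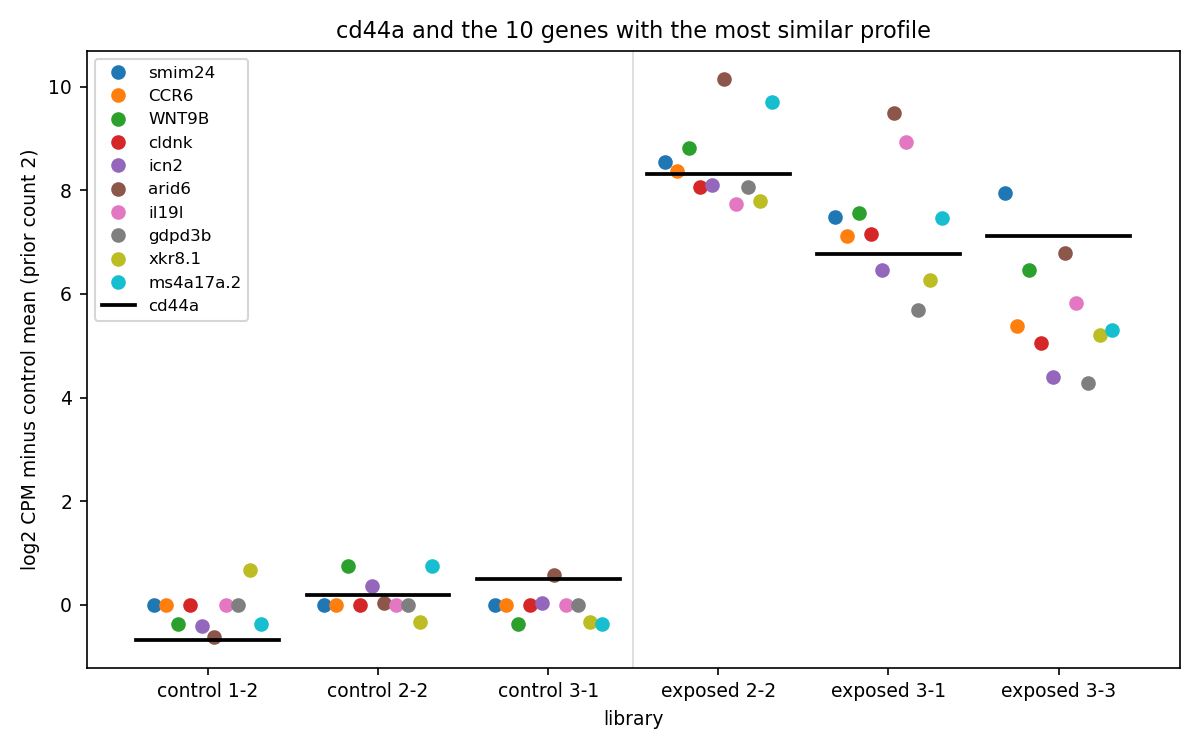
Log2 CPM (prior count 2) minus the control mean in each library for the 10 genes with the profile most like cd44a (coloured points) and for cd44a (black lines). In exposed 3-3 only smim24 lies above cd44a on this scale. For genes with 0 or few control counts the prior count of 2 sets the height of the points.

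Genes next to cd44a on its chromosome, in the gene order of the RefSeq assembly GRCz12tu, were looked at in the same fit. Of the 4 protein-coding genes on each side, 4 of the 8 could be matched to the counts table by symbol, which were not the nearest ones. These had log2 fold changes of -1.72 ± 2.66 (ascl1b, a transcription factor gene with few counts), 0.10 ± 1.47 (fjx1), -0.34 ± 0.23 (hsd17b12b) and 0.27 ± 0.24 (ttc17), with edgeR adjusted p between 0.527 and 0.986. Beside cd44b 5 of 8 were matched, with log2 fold changes from -0.21 ± 0.24 (chmp1a) to 1.08 ± 0.41 (slc10a3) and edgeR adjusted p of at least 0.256.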

How the data were processed

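The authors deposited unnormalized whole-number counts for each Ensembl gene, with 1 column per animal. Per the submitters' processing notes reads were aligned with STAR to GRCz11. The sources used here do not state the counting tool, annotation release, strand or mate settings, so reads of paralogs may have been shared out in unknown ways. Even numbers made up 66.8% to 75.1% of each library's counts from 10 to 99. The floors in CPM cover counting error only, and where both mates were counted that error rests on fewer fragments. The SDs and SEs also take in variation between libraries.

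Columns were matched by the description in each label, and 0 were left out. Symbols came from a reference table (29201 of 32520 identifiers). Genes kept by filterByExpr (26108) received TMM factors; the test was the two-sided quasi-likelihood F test of edgeR 4.0.16 (robust legacy glmQLFit, then glmQLFTest), group as the only term, Benjamini-Hochberg adjusted at 0.05. Dividing the size of a log2 fold change by the root of its F statistic gave the SE. Alternatives used DESeq2 1.42.0 and limma 3.58.1 (voom), in R 4.3.3; the functions were tested on simulated data. Python 3.11.15, numpy 2.4.6, pandas 2.3.3 and matplotlib 3.10.9 made the summaries.

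The members and lists were chosen with earlier results of these data known. Named are all members, the 2 genes with most counts and the 2 with the largest absolute log2 fold change (mean of at least 1 CPM) of each pathway list, and the 10 genes most like cd44a. A gene that the rule names is not reported here. Of 279 listed symbols 19 were absent. Marker genes matched through a name shared by paralogs (41) were left out after seeing the data. No 2 libraries agreed within sampling noise (smallest chi-square 161 per degree of freedom). Same-numbered libraries did not deviate together (correlations between -0.034 and 0.019), so the number was not used as pairing.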

Additional observations from a re-analysis of the deposited data

How the results depend on the processing

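EdgeR's count of genes past the threshold, 0 with all libraries, was 12 with no filter on low counts, 70 with its bias-adjusted method, 1 under relative log expression, upper-quartile or library-total scaling, 17 at an adjusted p under 0.1, 5 with the replicate block, and between 0 and 396 when a library was left out, the highest without exposed 3-3. DESeq2 gave 1756. Of the 10 members, cd44a alone was called in DESeq2, under the bias-adjusted method, under the 3 other scalings, with no filter and at 0.1 (1 member each), and between 0 and 1 when a library was left out, 1 without exposed 2-2 or 3-3. Because cd44a was selected on this same contrast, its calls describe the settings and are no support for its difference. It was not called in limma voom (7.501 ± 1.86, adjusted p = 0.266), with the replicate block (7.22 ± 0.61, adjusted p = 0.0712), with a filter of 1 CPM in 3 libraries (adjusted p = 0.0654), or when a control library or exposed 3-1 was left out (adjusted p from 0.0852 to 0.282). Its log2 fold change was 7.58 in DESeq2, 7.595 under the bias-adjusted method, 7.58, 7.501 and 7.58 under the 3 scalings in that order, 7.55 with no filter, and between 6.96 and 7.83 with a library left out. Of the pathway genes DESeq2 called 10, and between 0 and 5 were called with a library left out (ESRP1, ESRP2, GFPT2, areg and cd74b without exposed 3-3). The sign turned for 8 genes. With a library left out their log2 fold changes ran from -0.033 to 2.35 for HAS2, -0.037 to 0.55 for HYAL2 ENSDARG00000059931, -0.53 to 0.077 for HYAL2 ENSDARG00000062997, -0.12 to 0.25 for stab1, -0.29 to 0.20 for HEXA, -1.96 to 1.95 for ambp, -1.86 to 1.55 for ITIH2 and -10.5 to 0.59 for il6. With the replicate block the value was -0.047 for stab1 and 3.22 for hapln1a (1.70 without it), and in limma voom 0.73 for ambp. The causes were not tested. Over all alternative log2 fold changes of single genes, 411 kept direction and side of the threshold, 21 newly passed and 15 turned. HAS1, HAS3 and HYAL2 ENSDARG00000059931 had at most 105 counts in a library, and differences in them could have been missed. The parts of depth and of variation between libraries in this limit were not tested.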
